A study of Homo sapiens with 8 samples.

Results

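The cells described here are those of SUM159 cultures that carried the most mitotic messenger RNA after long passage in paclitaxel or in DMSO vehicle. SUM159 is an established human triple-negative breast cancer line. In each library, cells were ranked by the summed UMIs (unique molecular identifiers, each standing for 1 captured RNA molecule) of CDC20, CCNB1 and PLK1 over the UMI total of the cell, and the top 15% were taken. The cells were thus chosen by measured values of these 3 genes, which are left out of all counts and lists. This gave 69 of 459 cells in the DMSO library and 113 of 752 in the paclitaxel library, which is 182 of the 1211 cells of both libraries and of the 5738 cells of the series. The other 390 and 639 cells are called the rest.

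The series held 8 single-cell libraries, 1 for each group, made from SUM159 cells that carried a lentiviral DNA barcode library for following clones. The paclitaxel cultures had been passaged up to 18 times in 0.6 nM paclitaxel, and the DMSO cultures equally long in vehicle without drug. A pre-treatment library was made from the barcoded cells before passaging, and the remaining libraries were from cells passaged in 100 nM JQ1 (JQ1-A and JQ1-B), 160 nM palbociclib, JQ1+paclitaxel or JQ1+palbociclib at the same doses. Per the study's methods, replicate cultures were mixed ahead of droplet capture, so a library cannot be resolved into cultures and a difference between the paclitaxel and DMSO libraries has no replicate check. No droplet cell barcode was shared by the 2 libraries, and 0 of the 182 chosen cells had a cell barcode that occurs in any other library. The lentiviral clone barcodes were not analysed here.

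Cells enter mitosis when cyclin-dependent kinase 1 is activated by B-type cyclins, of which CCNB1 encodes the main one. Polo-like kinase 1, from PLK1, drives centrosome maturation and spindle assembly, and CDC20 activates the anaphase-promoting complex (APC/C), which marks cyclin B and securin for destruction at anaphase. Transcripts of these genes accumulate through G2 and peak around mitosis, under factors that bind CCAAT boxes and cell cycle homology region (CHR) elements in their promoters. Paclitaxel binds beta-tubulin and stabilises microtubules, which disturbs spindle formation and can prolong mitosis through the spindle checkpoint. Messenger RNA does not separate late G2 from mitosis, and cells were cut from a continuous score, so they are called high-scoring cells below and not a cell type.

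The 120 bases before the start of each of the 3 genes that chose the cells are shown because they hold the promoter elements common to genes of this phase. They are RefSeq sequences on GRCh38.p14, 5′ to 3′ on the strand of the gene, which is the plus strand for all 3. Capitals mark CCAAT boxes (letters CCAAT) and CHR elements (letters TTTGAA).
CDC20, chr1:43358861-43358980: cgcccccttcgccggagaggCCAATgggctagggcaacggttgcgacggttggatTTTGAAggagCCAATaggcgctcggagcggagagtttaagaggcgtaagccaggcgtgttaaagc
CCNB1, chr5:69167030-69167149: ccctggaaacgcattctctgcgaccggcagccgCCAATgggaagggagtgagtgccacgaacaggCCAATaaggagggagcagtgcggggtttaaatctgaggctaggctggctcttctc
PLK1, chr16:23678769-23678888: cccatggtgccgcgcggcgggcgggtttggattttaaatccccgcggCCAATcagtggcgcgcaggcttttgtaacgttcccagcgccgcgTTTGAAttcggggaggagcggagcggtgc

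CDC20 and CCNB1 each held 2 CCAAT boxes in the stretch shown and PLK1 held 1. TTTGAA stood 65 bases before the start in CDC20 and 29 before it in PLK1, and was not in the CCNB1 stretch. Within 250 bases before the start, TTTGAA on either strand was found in 13.6% of 27303 promoters, and in 24 of the 45 promoters matched for the 54 genes of the Seurat G2/M list, a published set of genes expressed in G2 and mitosis (53.3%). CCAAT on either strand was found in 33.0% of all promoters and in 68.9% of those of the G2/M list. For the S-phase list of the same source, 2 of 31 promoters (6.5%) held TTTGAA and 67.7% held CCAAT, so the letters TTTGAA separated the lists and CCAAT did not. These are matches of letters and were not tested for binding.

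The score itself was set higher in the paclitaxel library. In UMIs per 10000 UMIs of the cell, it had medians over all cells of 3.15 in DMSO and 4.88 in paclitaxel, and ran up to 19.0 and 27.9. The pre-treatment library, without drug, had a median of 2.72 and ran up to 31.6, so the highest score did not set paclitaxel apart. The last cell inside the cut stood at 8.711 and the first outside at 8.697 in DMSO, and at 9.823 and 9.819 in paclitaxel. A total of 25 DMSO cells (5.45%) and 52 paclitaxel cells (6.92%) lay within 10% of the cut, and there was no gap between the high-scoring cells and the rest. The high-scoring cells had close median scores, 12.7 in DMSO and 12.9 in paclitaxel, while those of the rest were 2.41 and 4.22.

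**Figure D1:**
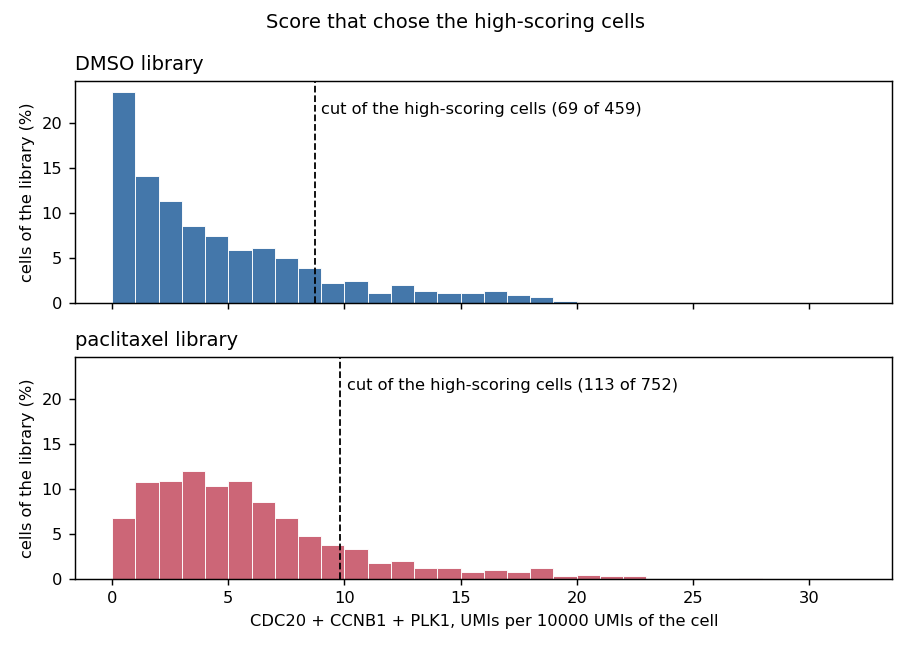
Histograms of the score (x axis, CDC20 + CCNB1 + PLK1 UMIs per 10000 UMIs of a cell, in bins of width 1) against the share of cells of the library (y axis, percent), for DMSO (top) and paclitaxel (bottom), with the cut as a dashed line at 8.711 and 9.823. The lowest bin is the tallest in DMSO, whereas paclitaxel has few cells there and its peak lies between 3 and 4.

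Because the rule takes 15% of every library, the DMSO cut of 8.711 was applied to all libraries to set levels side by side. Of the paclitaxel cells, 149 of 752 (19.8%, exact 95% binomial interval 17.02 to 22.85%) reached it, and 10.8% (8.43 to 13.6%) of the pre-treatment cells. The DMSO share of 15.03% is fixed by the rule, so it has no interval to set beside these. The DMSO and pre-treatment libraries, both without drug, stood about as far apart as paclitaxel and DMSO. JQ1+paclitaxel was at 7.62%, and the other 4 libraries lay between 2.25% and 6.31%. All intervals in the text are at 95% and cover counting error only, not the variation between cultures.

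Of the 3 genes that chose the cells, CCNB1 carried the most UMIs of the high-scoring cells, with 53.9% of the 3-gene sum in DMSO and 48.9% in paclitaxel. CCNB1 (chromosome 5, 68462962 to 68474072 on GRCh37) was at 700 CPM (UMIs summed over the cells of a group and scaled to a total of 1000000) in the high-scoring cells and 147 CPM in the rest of DMSO, and at 680 and 146 CPM in paclitaxel. CDC20 (chromosome 1, 43824652 to 43828874) was at 402 and 128 CPM in DMSO and at 484 and 210 CPM in paclitaxel. PLK1 (chromosome 16, 23688977 to 23701688) was at 197 and 54.5 CPM in DMSO and at 226 and 87.5 CPM in paclitaxel. Thus CCNB1 had the same level in the rest of both libraries (paclitaxel over DMSO 0.992), and the higher score of the paclitaxel rest came from CDC20 (1.65) and PLK1 (1.60). These values follow from the rule and are a description.

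The high-scoring cells were deeper than the rest, and more so in paclitaxel. Their median UMI total was 22556 against 20477.5 in DMSO and 27083 against 21754 in paclitaxel, and the highest total, 100446, was that of a high-scoring paclitaxel cell. The median share of mitochondrial UMIs was lower in the high-scoring cells, 3.003% against 3.983% in DMSO and 2.81% against 3.87% in paclitaxel. NEAT1 and MALAT1, long noncoding RNAs kept in the nucleus, were lower as well, with median sums of 82.7 against 136 UMIs per 10000 in DMSO and 60.3 against 79.3 in paclitaxel. The part of depth and of these RNAs in the results that follow was not tested. The 4 groups held 1782216 (DMSO high-scoring), 8838943 (DMSO rest), 3406087 (paclitaxel high-scoring) and 14770390 UMIs (paclitaxel rest), so counting error was largest in the DMSO high-scoring cells. The line's own markers VIM (3484 to 4394 CPM) and S100A6 (5594 to 7429 CPM) were high in all 4 groups. The receptor genes ESR1, PGR and ERBB2 summed to between 5.58 and 7.86 CPM, the leukocyte markers (3 of 6 in the table) to between 6.75 and 13.4 CPM, the fibroblast and pericyte markers to between 22.0 and 38.2 CPM, and the only endothelial marker in the table, KDR, was at 0 in all 4.

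The label of the cells was checked on the 53 genes of the G2/M list that the rule did not use. Summed per cell, this list was at a median of 79.2 UMIs per 10000 (quartiles 60.2 and 102) in the high-scoring cells and 36.1 (22.8 and 53.9) in the rest of DMSO. In paclitaxel the medians were 77.2 (62.4 and 90.1) and 50.3 (39.1 and 64.8). Summed over the list, the medians of the high-scoring cells were thus closer between the libraries than those of the rest. Even so, 7 of the 49 tested genes of the list, HMGB2 and NEK2 among them, were at least 1.5-fold lower in the high-scoring cells of paclitaxel. In the high-scoring cells of the pre-treatment library, also without drug, 9 of the 49 were at least 1.5-fold lower than in those of DMSO. By contrast, the S-phase list changed little with the score, with medians of 15.9 and 13.8 in DMSO and 20.2 and 18.0 in paclitaxel. Ranking by the G2/M list in place of the 3 genes would have kept 35 of the 69 DMSO cells (50.7%) and 55 of the 113 paclitaxel cells (48.7%). A few high-scoring cells, 2 in DMSO (2.90%) and 10 in paclitaxel (8.85%), lay below the median of the rest for this list.

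Along the score the list climbed from low to high cells in both libraries, from a lower start in DMSO. Its median in the lowest 10% of cells was 17.1 UMIs per 10000 in DMSO, 17.7 in pre-treatment and 35.3 in paclitaxel. In the highest 10% it was 89.6, 72.0 and 79.2, which put paclitaxel between the libraries without drug. Across cells of a library, Spearman's rho between score and list was 0.68 in DMSO (459 cells) and 0.55 in paclitaxel (752 cells). The cells of a library share its culture pool, and both measures share the UMI total of the cell as denominator, so these are descriptions. Among the high-scoring cells, the upper and lower parts by score had medians of 89.5 and 68.9 in DMSO and 81.0 and 75.7 in paclitaxel, and an equal number of cells just outside the cut had 58.7 and 61.6.

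**Figure D2:**
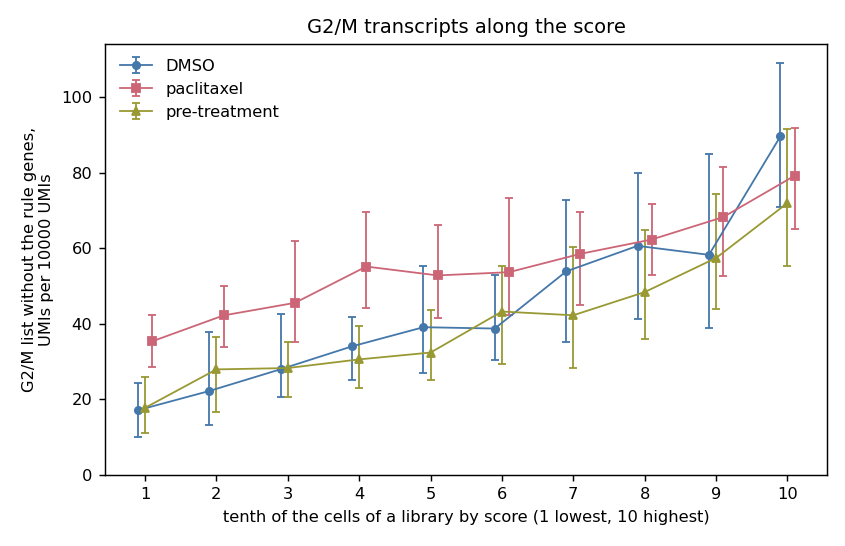
Summed UMIs of the G2/M list without CDC20 (y axis, UMIs per 10000 UMIs of the cell) in 10 equal groups of the cells of a library ordered by score (x axis), with points for medians and bars for quartiles. The paclitaxel curve starts at 35.3 against 17.1 in DMSO and 17.7 in pre-treatment, and the 3 libraries end between 72.0 and 89.6.

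Per gene, CPM of the high-scoring cells was divided by that of the rest. With 1 library per treatment no test was possible, and the rule itself used this contrast, so ratios are given with exact intervals as a description. Of 4666 genes whose mean over the 4 groups was 20 CPM or more (CDC20, CCNB1 and PLK1 left out), 453 were at least 1.5-fold higher in the high-scoring DMSO cells (9.71%) and 76 at least 1.5-fold lower (1.63%). In paclitaxel, 420 were higher (9%) and 97 lower (2.08%). The median gene stood at 1.09 in DMSO (0.13 on the log2 scale) and 1.03 in paclitaxel. Relative to the median gene, 256 genes were higher and 157 lower in DMSO, so the share of higher genes among those past the fold went from 85.6% to 62.0%, and in paclitaxel 365 were higher and 130 lower. The 2 libraries shared 240 higher genes, which is 52.98% of those of DMSO and 57.1% of those of paclitaxel.

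The G2/M list made up more of these genes in DMSO than in paclitaxel. Its 49 tested genes had a median ratio of 2.06 in DMSO, with 38 at least 1.5-fold higher, and of 1.48 in paclitaxel, with 24. The ratio was lower in paclitaxel than in DMSO for 47 of the 49, against 61% of all 4666 genes. It was at least 1.5-fold lower for 17 of them, against 3.71% of all genes (173). The exceptions, NCAPD2 of condensin and CDK1, were looked up after their values were seen. CDK1 was at 143 and 86.4 CPM in the high-scoring cells and the rest of DMSO and at 168 and 78.7 CPM in paclitaxel, ratios of 1.65 and 2.14. The S-phase list had medians of 1.08 in DMSO and 1.19 in paclitaxel over 26 tested genes. The score that chose the cells also had the narrower contrast in paclitaxel. Its medians in the high-scoring cells and the rest were 12.9 and 4.22 there, and 12.7 and 2.41 in DMSO. For paclitaxel over DMSO, the G2/M list had a median of 0.94 in the high-scoring cells and 1.26 in the rest. How far the lower G2/M ratios in paclitaxel follow from this narrower contrast was not tested.

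Set beside the other libraries, ranked and cut in the same way, paclitaxel had the lowest median ratio of the G2/M list. The order was paclitaxel 1.48, pre-treatment 1.80, DMSO 2.06, JQ1-B 2.84, JQ1+palbociclib 2.91, JQ1+paclitaxel 3.05, palbociclib 3.18 and JQ1-A 3.37. The libraries of cells selected in JQ1 or palbociclib thus formed the upper end, and JQ1+paclitaxel stood among them and not near paclitaxel alone. There was no replicate of any library to say which neighbours in this order differ. The 5 libraries with the largest ratios also had the lowest rest. The median per cell of the G2/M list in the rest was 50.3 UMIs per 10000 in paclitaxel, 36.1 in DMSO, 34.0 in pre-treatment and between 13.8 and 21.3 in those 5. DMSO, however, had both a larger ratio and a higher rest than pre-treatment.

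**Figure D3:**
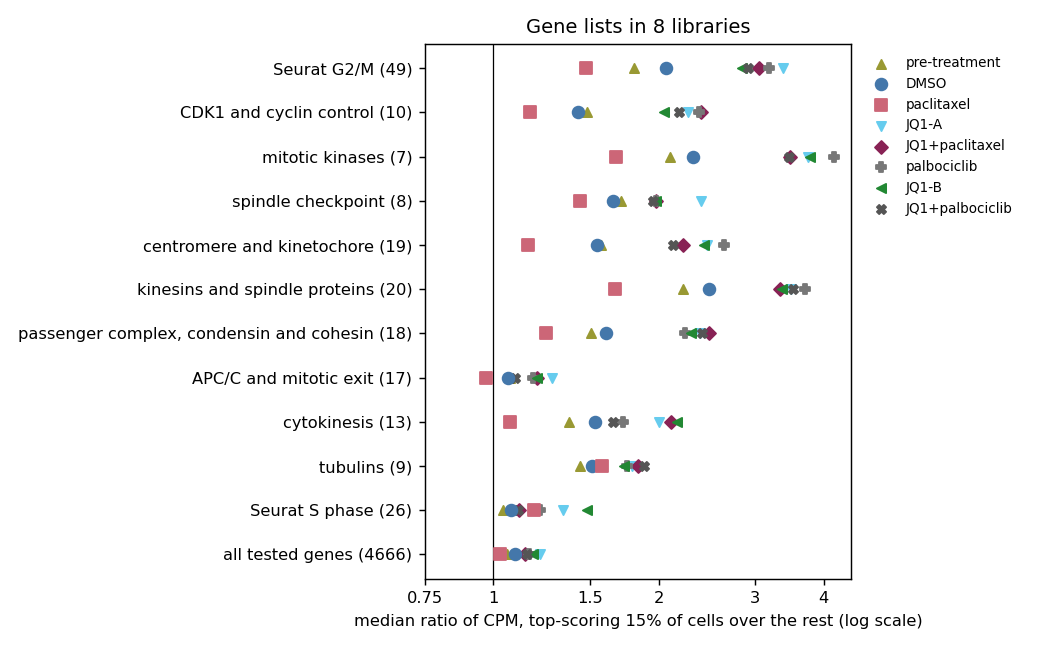
Median ratio of CPM in the top-scoring 15% of cells over the rest (x axis, log scale) for lists of genes (y axis, number of tested genes in brackets), with a symbol for each of the 8 libraries. For the G2/M list paclitaxel lies at 1.48, DMSO at 2.06 and JQ1+paclitaxel at 3.05, while for tubulins paclitaxel (1.58) and DMSO (1.51) lie together.

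Whether the difference between high-scoring cells and the rest varied with paclitaxel was tested over all 8 libraries. The 2 libraries with paclitaxel were set against the 6 without, in edgeR's quasi-likelihood test on 16 sums with the library as a block and with terms for JQ1 and palbociclib. None of 4496 genes passed (0%) at a threshold of 0.05 for the p adjusted by Benjamini and Hochberg. Without adjustment, 177 genes had a p under 0.05, and DESeq2 called 0 genes. The gene of smallest p was NNMT, with an interaction term (log2) of 0.44 and an adjusted p of 0.999 in edgeR. NEK2 had -0.52 ± 0.25 (SE) and an unadjusted p of 0.0465, and KPNA2 had -0.05 ± 0.13. Leaving out the paclitaxel library gave 5 calls, and that fit rests on JQ1+paclitaxel alone.

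Kinases that act in mitosis had some of the largest ratios. All 7 tested members of this list were at least 1.5-fold higher in the high-scoring DMSO cells (median 2.32) and 6 of 7 in paclitaxel (median 1.67), and all 7 had the lower ratio in paclitaxel. For this and the lists below, the shares over all 4666 genes were 9.71% and 9% at least 1.5-fold higher, and 61% with the lower ratio in paclitaxel. The mitotic lists share genes with the G2/M list, NEK2 among them, so they are not separate support for its values. NEK2, a centrosome kinase that helps to separate centrosomes (chromosome 1, 211831999 to 211848972), had the largest ratio of all genes in DMSO. It was at 70.1 and 14.6 CPM in DMSO (4.81-fold, interval 3.73 to 6.19) and at 34.6 and 17.1 CPM in paclitaxel (2.02-fold, 1.61 to 2.53). In the pre-treatment library it was at 42.3 and 12.0 CPM, so the DMSO high-scoring cells stood apart from both. BUB1, the checkpoint kinase that loads other checkpoint proteins at kinetochores, was at 37.03 and 10.8 CPM in DMSO and 22.6 and 12.7 CPM in paclitaxel. AURKA, the spindle pole kinase Aurora A, was higher in paclitaxel in both kinds of cells. It was at 152 and 53.7 CPM in DMSO and 191 and 93.1 CPM in paclitaxel, with ratios of 2.83 and 2.05. TPX2, which activates Aurora A on the spindle, had ratios of 1.94 and 1.51, and the kinase PBK had 2.32 and 1.67.

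Kinesins and spindle proteins were the list with the highest median in DMSO, 2.48, with 18 of 20 at least 1.5-fold higher. In paclitaxel the median was 1.67 with 14 of 20, and all 20 had the lower ratio there, against 61% of all genes. KPNA2 did not keep the lower ratio with cells thinned to 10000 UMIs or ranked without CCNB1. KPNA2, importin alpha, which holds spindle factors inactive until Ran releases them (chromosome 17, 66031752 to 66043480), had the ratio that differed least between the libraries within this list. It was at 519 and 178 CPM in DMSO (2.92-fold, 2.69 to 3.17) and at 566 and 205 CPM in paclitaxel (2.76-fold, 2.60 to 2.92), where it led all genes. HMMR, a spindle pole protein, was at 67.9 and 19.9 CPM in DMSO and 65.8 and 30.0 CPM in paclitaxel. ARL6IP1 had ratios of 2.55 and 2.05, NUSAP1, which bundles spindle microtubules, 2.17 and 1.77, and KNSTRN, a spindle and kinetochore protein, 3.07 and 1.94. FAM64A, a mitotic regulator known as PIMREG, went from 3.27 (2.67 to 3.99) in DMSO to 1.52 (1.29 to 1.78) in paclitaxel, and ASPM, the spindle pole protein of microcephaly, from 2.29 to 1.24.

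Cyclins and their partners varied among themselves. Of 10 tested genes of CDK1 and cyclin control, 5 were at least 1.5-fold higher in DMSO and 4 in paclitaxel, with medians of 1.43 and 1.16. CCNB2, the second B-type cyclin, was at 226 and 73.7 CPM in DMSO (3.07-fold) and 146 and 58.8 CPM in paclitaxel (2.48-fold). It was lower in paclitaxel in both kinds of cells, unlike CCNB1. CKS2, a small subunit that binds CDK1, was at 985 and 413 CPM in DMSO and 857 and 537 CPM in paclitaxel, and CKS1B had ratios of 1.91 and 1.29. In the spindle checkpoint list, 5 of 8 genes were at least 1.5-fold higher in DMSO and 4 of 8 in paclitaxel (medians 1.65 and 1.44). MAD2L1, which encodes the inhibitor of CDC20, was at 176 and 78.2 CPM in DMSO and 169 and 97.0 CPM in paclitaxel, and BUB3 had ratios of 1.85 and 1.61 and TRIP13 of 1.70 and 1.27.

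Centromere and kinetochore genes had medians of 1.54 in DMSO, with 10 of 19 at least 1.5-fold higher, and 1.16 in paclitaxel, with 6 of 19. Subunits of the NDC80 complex, which joins kinetochores to microtubules, had the largest ratios of this list. NUF2 was at 93.1 and 26.8 CPM in DMSO (3.47-fold) and 68.1 and 30.3 CPM in paclitaxel (2.25-fold), and NDC80 at 51.6 and 16.1 and at 37.6 and 15.2 CPM (3.21-fold and 2.48-fold). CENPF, an outer kinetochore protein of G2 and mitosis, had ratios of 2.35 and 1.51, the centromeric histone CENPA 1.85 and 1.15, and CENPW 1.30 and 1.13. In the list of the passenger complex, condensin and cohesin, 11 of 18 genes were at least 1.5-fold higher in DMSO and 3 of 18 in paclitaxel (medians 1.61 and 1.25). There the securin gene PTTG1 had ratios of 1.60 and 1.42, the condensin subunit SMC4 2.08 and 1.58, and BIRC5, survivin, 1.36 and 1.30.

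The list of APC/C and mitotic exit genes, not all of them APC/C subunits, stood near the median gene in both libraries. Of 17 tested genes, 3 were at least 1.5-fold higher in DMSO and 1 in paclitaxel, against 9.71% and 9% of all tested genes, and the medians were 1.06 and 0.97. The 3 genes past 1.5-fold in DMSO were UBE2C, UBE2S and CDC23, a core subunit (1.64 and 1.16, named after its values were seen), and the gene past it in paclitaxel was UBE2C. UBE2C was at 296 and 151 CPM in DMSO and 439 and 259 CPM in paclitaxel (ratios 1.96 and 1.70), and UBE2S at 1106 and 716 CPM in DMSO and 1575 and 1329 CPM in paclitaxel. Both were higher in paclitaxel in the high-scoring cells and in the rest, whereas the core subunit ANAPC11 stayed between 395 and 450 CPM in all 4 groups. Cytokinesis genes had medians of 1.53 in DMSO, with 7 of 13 at least 1.5-fold higher, and 1.07 in paclitaxel, with 3 of 13. All 13 had the lower ratio in paclitaxel, against 61% of all genes. The abundant members RHOA (1.26 and 1.21), SEPT2 (1.17 and 1.06) and MYH9 (0.77 and 0.72), which are used outside cell division too, differed little between the libraries.

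HMGB2, a chromatin protein of dividing cells (chromosome 4, 174252527 to 174255583), differed most between the libraries among the well-expressed genes together with FAM64A. It was at 570 CPM in the high-scoring cells and 262 CPM in the rest of DMSO (2.18-fold, 2.02 to 2.35) and at 278 and 269 CPM in paclitaxel (1.04-fold, 0.963 to 1.11). Thus the rest stood level (paclitaxel over DMSO 1.03) and the high-scoring cells stood apart (0.488, 0.446 to 0.534). In pre-treatment HMGB2 was at 362 and 229 CPM, and in JQ1+paclitaxel at 726 and 191 CPM, so the pattern of paclitaxel alone was not seen with the combination. Also among the genes with the smallest ratio in paclitaxel relative to DMSO were TSC22D3 (1.64 and 0.85) and ASPM. At the opposite end stood RRP1 (0.88 and 1.39), SAT1 (0.73 and 1.14), IL18 (0.997 and 1.53), GLA (1.37 and 2.07) and EIF4A3 (1.70 and 2.54).

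**Figure D4:**
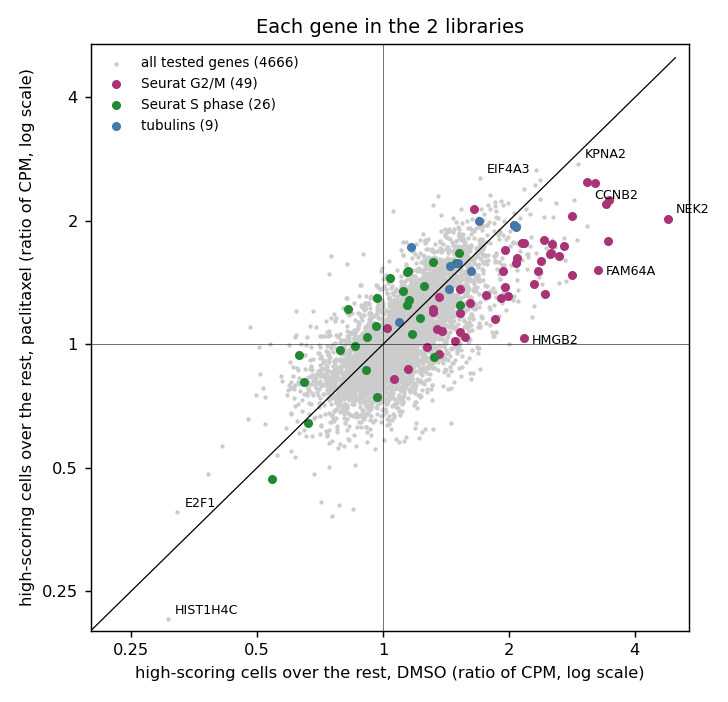
Ratio of CPM in high-scoring cells over the rest in DMSO (x axis, log scale) against the same in paclitaxel (y axis, log scale) for 4666 genes, with the G2/M list, the S-phase list and tubulins in colour and equality as the diagonal. Of the 49 G2/M genes 47 lie below the diagonal, with HMGB2 at 2.18 and 1.04, while KPNA2 (2.92 and 2.76) lies close to it.

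The smallest ratios of both libraries included a histone gene of S phase and E2F1, while the S-phase list as a whole had medians of 1.08 in DMSO and 1.19 in paclitaxel. HIST1H4C, a replication-dependent histone H4 gene, was at 402 and 1317 CPM in DMSO (0.306, 0.283 to 0.330) and 280 and 1310 CPM in paclitaxel (0.214, 0.200 to 0.228), the smallest ratio of each library. It has near-identical copies and its mRNA mostly lacks a poly(A) tail, so its level is uncertain. E2F1, the transcription factor of the G1-S transition, was at 8.42 and 26.1 CPM in DMSO and 12.9 and 33.2 CPM in paclitaxel. HES4 (0.38 and 0.48), ABL2 (0.41 and 0.56) and ABCC3 (0.48 and 0.66) completed the low end in DMSO, and DUSP5 (0.38), SORBS2 (0.40) and TNFAIP3 (0.41) in paclitaxel. The abundant S-phase enzymes RRM2 (1.23 and 1.16) and TYMS (1.17 and 1.06) differed little from the median gene. None of 9 tested G1 and G1-S genes was at least 1.5-fold higher in the high-scoring cells of either library. Over all tested genes the share was 9.71% in DMSO and 9% in paclitaxel, so for 9 genes this count is near the share. E2F1 was the only one of the 9 at least 1.5-fold lower, against 1.63% and 2.08% of all tested genes.

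Tubulins, whose beta subunit is the target of paclitaxel, were higher in the high-scoring cells of both libraries. Of 9 tested genes, 5 were at least 1.5-fold higher in DMSO and 7 in paclitaxel (medians 1.51 and 1.58). TUBA1B was at 2691 and 1655 CPM in DMSO and 2516 and 1668 CPM in paclitaxel, and TUBB4B at 948 and 460 and at 1047 and 536 CPM. TUBB was lower in paclitaxel, at 1808 and 1254 CPM in DMSO and 1446 and 930 CPM in paclitaxel. TUBA1A, named after its values were seen, was the only tubulin that differed by more than 1.5-fold between paclitaxel and DMSO, with 321 and 190 CPM in DMSO and 84.6 and 42.3 CPM in paclitaxel. The libraries without drug differed in tubulins too. In high-scoring cells, pre-treatment over DMSO had a median of 0.725 for the 9 genes, with 2 at least 1.5-fold lower and the lowest at 0.301. Tubulin genes are closely related in sequence, and reads shared between them make single values uncertain. Among microtubule-binding proteins, STMN1, which destabilises microtubules, had ratios of 1.53 and 1.39 and TBCA 0.93 and 0.98. None of the 7 drug efflux pumps reached the 20 CPM needed, and the list summed to between 26.3 and 29.4 CPM in the 4 groups.

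Chaperonin and proteasome subunits were higher in the high-scoring cells of both libraries, with the larger medians in paclitaxel. The 8 tested subunits of the chaperonin, which folds actin and tubulin, had medians of 1.47 in DMSO (4 at least 1.5-fold higher) and 1.75 in paclitaxel (7), and none had the lower ratio in paclitaxel. CCT5 was at 634 and 398 CPM in DMSO and 738 and 368 CPM in paclitaxel. Of 42 proteasome subunits, 12 were at least 1.5-fold higher in DMSO and 21 in paclitaxel (medians 1.363 and 1.503), with PSMB1 at 1.43 and 1.81 and PSMA7 at 1.09 and 1.13. Over all tested genes, 9.71% were at least 1.5-fold higher in DMSO and 9% in paclitaxel. The 9 tested exosome subunits, which degrade and trim RNA, had medians of 1.32 and 1.30, with 1 and 2 at least 1.5-fold higher. For 9 genes these counts are near those shares. The 10 largest ratios in paclitaxel included EIF4A3 (2.54), a core protein of the exon junction complex, UTP15 (2.45), RIOK2 (2.39) and DCAF13 (2.31) of ribosome assembly, C1GALT1C1 (2.65), HSPA1A (2.52) and MTERFD1 (2.30). Only 3 of these 10, KPNA2, CCNB2 and NDC80, belong to the mitotic lists, against 8 of the 10 in DMSO, where KNSTRN and GOT1, an aspartate aminotransferase (2.91 and 1.79), are the others. Reads of HSPA1A cannot be told from those of its near copy HSPA1B. The level of this group moved with the use of CCNB1 in the score. When cells were ranked by CDC20 and PLK1 alone, a check chosen after seeing the data, the proteasome medians were 1.20 and 1.34, EIF4A3 stood at 1.94 and UTP15 at 1.86 in paclitaxel, and 194 genes in place of 420 were at least 1.5-fold higher. Ribosomal and mitochondrial transcripts lay on the other side. The medians were 0.88 and 0.93 for 80 cytosolic ribosomal protein genes and 0.76 and 0.79 for 12 mitochondrially encoded genes, in DMSO and paclitaxel.

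Promoter letters differed between the genes of the 2 libraries. TTTGAA was found in 8.30% of the 3649 tested genes with a promoter sequence. Among genes at least 1.5-fold higher in the high-scoring cells, it was found in 37 of 176 (21.0%) of those higher in DMSO but not in paclitaxel, in 28 of 198 (14.1%) of those higher in both, and in 9 of 140 (6.43%) of those higher in paclitaxel but not in DMSO. CCAAT was found in 46.0%, 52.5% and 43.6% of these groups and in 37.4% of all tested. No test was made on these counts.

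Between the libraries, the high-scoring cells of paclitaxel and DMSO differed by at least 1.5-fold for 390 genes that were higher in paclitaxel (8.36%) and 457 that were lower (9.79%). For the rest of the cells, 380 genes were higher (8.14%) and 260 lower (5.57%), and relative to the median gene these counts were 284 and 319, so which direction had more genes depended on the scaling. As a measure of how far libraries without drug stood apart, the pre-treatment high-scoring cells were set against the same DMSO cells, which gave 139 genes higher (2.98%) and 233 lower (4.99%). These comparisons share the DMSO high-scoring cells, and each rests on 1 library a side.

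The genes with the smallest ratios were inflammatory and immediate early genes, and most of them were low in the rest too. Of 7 tested cytokine and NF-kB target genes, 6 were at least 1.5-fold lower in paclitaxel in the high-scoring cells (median 0.120) and in the rest (median 0.184). IL8, the neutrophil chemokine, was at 649 CPM in the high-scoring cells and 911 CPM in the rest of DMSO, 638 and 908 CPM in pre-treatment, and 54.3 and 86.1 CPM in paclitaxel. IL8 was also low in libraries without paclitaxel, with 48.6 and 123 CPM in JQ1+palbociclib and 105 and 135 CPM in JQ1-B, and it was at 354 and 187 CPM in JQ1+paclitaxel. CXCL2 was at 392 and 527 CPM in DMSO, 301 and 471 CPM in pre-treatment, and 47.0 and 76.2 CPM in paclitaxel. For CXCL2 as for IL8, the paclitaxel cells were below the levels of both DMSO and pre-treatment. CXCL3 (0.100), IL6 (0.141) and TNFAIP3 (0.095), an inhibitor of NF-kB that NF-kB induces, completed this group. Of 12 immediate early genes, which are induced within minutes of a growth signal, 9 were at least 1.5-fold lower in the high-scoring cells and 9 in the rest (both medians 0.356). EGR1 was at 121 and 153 CPM in DMSO and 21.1 and 26.5 CPM in paclitaxel, and IER3 at 960 and 1145 and at 327 and 421 CPM. PNRC1 (0.152) and INSIG1 (0.167), which restrains cholesterol synthesis, were low as well. MYC, which is on this list and on that of G1 control, was at 472 and 332 CPM in DMSO and 325 and 271 CPM in paclitaxel. CXCL2 and CXCL3 are similar in sequence, so reads could be exchanged between them.

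**Figure D5:**
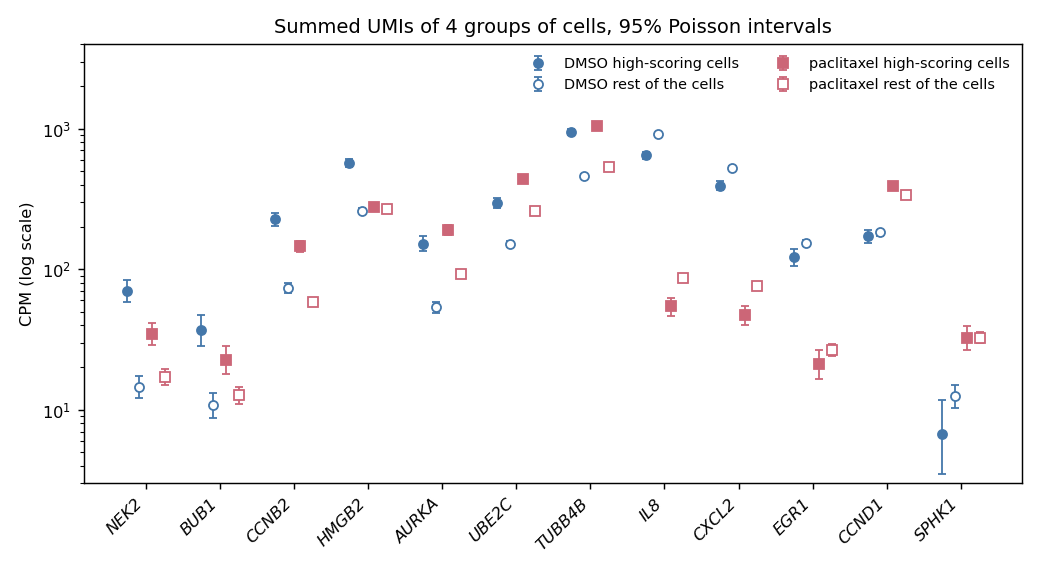
CPM (y axis, log scale) of 12 genes in high-scoring cells (filled) and the rest (open) of DMSO (circles) and paclitaxel (squares), with exact 95% Poisson intervals. Mitotic genes from NEK2 to TUBB4B are higher in the filled than in the open symbols apart from HMGB2 in paclitaxel, whereas IL8, CXCL2 and EGR1 differ more by library than by kind of cell.

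The largest ratios of paclitaxel over DMSO came from low levels in DMSO. SPHK1, the kinase that makes sphingosine-1-phosphate, was at 6.73 CPM in the high-scoring cells of DMSO and 32.6 in those of paclitaxel (4.84-fold, 2.66 to 9.65), and at 12.6 and 32.5 CPM in the rest. ANGPTL4 was at 9.54 and 45.5 CPM in the high-scoring cells (4.77-fold, 2.88 to 8.40) and at 12.7 and 27.8 CPM in the rest. The collagenase gene MMP1 was at 7.85 CPM in DMSO and 34.9 in paclitaxel, but at 50.6 CPM in the pre-treatment high-scoring cells, so the libraries without drug differed more than paclitaxel and DMSO did. PUS1 (3.82) and TRMT61A (3.61), which modify transfer RNA, SCG5 (3.45), ATAD3B (3.39) and PDCD11 (3.23) followed. CCND1, cyclin D1 of G1, was higher in paclitaxel at 392 against 171 CPM in the high-scoring cells and 339 against 183 CPM in the rest. Of the mitotic lists, none reached a median of 1.5-fold in either direction. In the high-scoring cells the G2/M list had a median of 0.94, with 0 of 49 genes at least 1.5-fold higher and 7 lower, and in the rest a median of 1.26, with 7 higher and 0 lower. Pre-treatment over DMSO gave this list a median of 0.81 in the high-scoring cells, with 0 higher and 9 lower. For paclitaxel over DMSO, the S-phase list had medians of 1.26 in the high-scoring cells and 1.17 in the rest. Of 4 tested p53 target genes, CDKN1A, the inhibitor p21, was at least 1.5-fold lower in each kind of cell (0.40 and 0.54), and BAX stood at 1.06 and 1.16 and PLK2 at 0.88 and 0.89.

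A paclitaxel term in the high-scoring cells was tested over the 8 libraries, again with 2 exposed and 6 unexposed. In edgeR, 1 of 4573 genes (0.0219%) was called, AKR1C2, which encodes an aldo-keto reductase that reduces steroids and reactive aldehydes (chromosome 10, 5029967 to 5060223). Its log2 fold change was -1.98 ± 0.26 (SE), with an adjusted p of 0.0456 in edgeR. It was at 11.2 CPM in the high-scoring cells of paclitaxel and 57.8 in those of DMSO, with 9.88 and 36.3 CPM in the rest, and at 32.8 CPM in the pre-treatment high-scoring cells. In those of JQ1+paclitaxel it was at 10.7 CPM and in the other 4 libraries between 26.4 and 47.7 CPM, so the 2 libraries with paclitaxel lay below all others. AKR1C2 has near-identical relatives, so its counts are uncertain. IL8 had 0.30 ± 0.95 and an adjusted p of 0.937 in edgeR. Without adjustment, 368 genes had a p under 0.05, and DESeq2 called 4 genes. The count rested on single libraries, as it was 168 without JQ1+paclitaxel, 7 without paclitaxel, 2 without palbociclib or without JQ1+palbociclib, and 0 without DMSO, JQ1-A or JQ1-B.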

How the data were processed

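Single-cell RNA libraries of 8 groups of SUM159 cells were made with 10x Genomics 3′ chemistry. The authors aligned reads to hg19 and counted UMIs with Cell Ranger, and the deposited table holds UMI counts of 18955 genes, each seen in at least 3 cells, in 5738 cells. The study's methods ask for 2000 genes or more and a mitochondrial share of 1 to 15% per cell. The deposited counts still include 163 cells outside these limits, and all cells were used here. Deposited UMI totals per cell exceeded the column sums by at most 38. Doublets were not called, since all cells are of 1 line, and cells above the 95th percentile of UMIs of their library were left out as a check.

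UMIs were summed over high-scoring cells and over the rest of each library and scaled to CPM. Poisson, binomial and conditional binomial intervals are exact. Genes were compared at a fold of 1.5 among those with a mean of at least 20 CPM over the 4 groups. The 2 tests used edgeR 4.0.16 (TMM, quasi-likelihood) in R 4.3.3, with DESeq2 1.42.0 as an alternative, and left 4 residual degrees of freedom. Standard errors derived from the F statistic are approximate. Both fits were tested on simulated counts. With 200 genes changed by a log2 fold of 2, the interaction (4496 genes) recovered 100% with 8 false calls and the paclitaxel term in high-scoring cells (4573 genes) 100% with 10. Apart from these changes, each simulated gene had the same mean in all sums and a fixed dispersion that was not estimated from the data. The recovery therefore does not give the power of the fits for smaller changes or for the spread between the real libraries.

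Cell cycle lists came from Seurat 5.3.0, other lists were written by hand, and promoters came from RefSeq (GRCh38.p14). Gene positions are those of GRCh37. Members and lists were chosen with earlier results of these data known, and the proteasome, chaperonin and ribosomal lists after seeing these data. Named genes were the 10 largest and 5 smallest ratios of high-scoring cells over the rest in each library, the 8 largest and 8 smallest ratios of paclitaxel over DMSO, the 5 largest and 5 smallest ratios of ratios among genes of at least 50 CPM, called genes, and the 3 most abundant genes of each mitotic list and 2 of each other list. A gene that this rule names is not reported here.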

Additional observations from a re-analysis of the deposited data

How the results depend on the processing

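No paired analysis was possible because each treatment is 1 library and the labels give no replicate numbers that could pair treatments. High-scoring cells and the rest of the same library were paired by the library block of the interaction. The share of paclitaxel cells above the DMSO cut was 21.6% with cells thinned to 10000 UMIs and 19.6% with the study's filter. The median ratio of the G2/M list in DMSO and in paclitaxel, 2.06 and 1.48, was 2.01 and 1.45 with the study's filter, 2.15 and 1.51 for the top 10%, 1.85 and 1.38 for the top 20%, 1.92 and 1.42 after thinning, 1.95 and 1.42 with cells ranked on a random part of their UMIs and measured in the other part, 1.81 and 1.35 without cells above the 95th percentile of UMIs, and 1.89 and 1.44 relative to the median gene. In paclitaxel it was 1.41 at the DMSO cut, 1.52 for genes of at least 50 CPM and 1.51 for genes of at least 5 CPM. Ranking without CDC20, CCNB1 or PLK1, which was chosen after seeing the data, gave 2.01, 1.85 and 1.99 in DMSO and 1.39, 1.36 and 1.43 in paclitaxel. The value for DMSO stayed above that for paclitaxel in each of these settings run in both libraries. Medians near 1 or near each other did change side. The median ratio of the S-phase list in DMSO, 1.08, was 0.957 when ranked without CCNB1, and without cells above the 95th percentile of UMIs the median over genes of the paclitaxel ratio divided by the DMSO ratio was 0.905 in place of 1.04 for tubulins and 0.981 in place of 1.06 for the proteasome.

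Counts of genes past 1.5-fold followed the number of genes tested. At a minimum of 50 and of 5 CPM, 218 and 900 genes were higher in the high-scoring cells of DMSO and 240 and 694 in those of paclitaxel, and between the libraries 172 and 880 were higher and 152 and 1372 lower in paclitaxel, so more genes were higher than lower at 50 CPM and fewer at 5 CPM. Relative to the median gene 256 were higher in DMSO, and without CCNB1 in the ranking the counts were 264 in DMSO and 194 in paclitaxel. Relative to the median gene, the rest of the cells had 284 genes higher and 319 lower in paclitaxel, in place of 380 and 260. The interaction had 5 calls without a gene filter, 1 for the top 10% and 0 to 5 when 1 library was left out. The paclitaxel term in high-scoring cells had 4 calls in DESeq2, 66 without a gene filter, 0 at a minimum of 50 CPM, 0 for the top 10% and for the top 20%, and 0 to 168 when 1 library was left out. The cause was not tested. Of 728 values under alternatives, for the single genes and comparisons chosen by the rule on named genes, 651 moved by less than their counting interval, 77 by more, and 0 changed direction. These values were chosen as the extremes of each comparison, so a change of direction was unlikely from the outset. Single-gene values near 1 did change side. The paclitaxel ratio of KPNA2 divided by its DMSO ratio was 0.945, but 1.02 with cells thinned to 10000 UMIs and 1.04 when ranked without CCNB1. The 69 high-scoring DMSO cells set the precision of most ratios.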

Other observations

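High-scoring cells differed in which of the 3 genes carried their score. CCNB1 UMIs exceeded those of CDC20 and PLK1 together in 41 of the 69 DMSO cells (59.4%), 42 of the 113 paclitaxel cells (37.2%) and 41 of the 90 pre-treatment cells (45.6%). The CCNB1-led cells were deeper, with median UMI totals of 25926 against 16814.5 in DMSO and 34469.5 against 22242 in paclitaxel, and the part of depth in what follows was not tested. Their G2/M list was at 88.4 against 71.4 UMIs per 10000 in DMSO and 79.6 against 74.3 in paclitaxel, as medians over cells. Gene by gene on summed UMIs, the difference was small. The 27 G2/M genes of at least 50 CPM had median ratios of CCNB1-led over other cells of 1.077 in DMSO and 1.003 in paclitaxel. All 2462 such genes had 1.017 and 1.001, and 8 and 13 of the 27 lay below 1. This division was made after seeing the data and uses the genes of the score, so its values are a description.

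Of 2462 genes of at least 50 CPM, only 27 were on the G2/M list, so a short list of genes would mostly hold none of them. The genes highest in the CCNB1-led cells of both libraries were mostly not mitotic, which is no trait of these cells given that share. DUSP1 led them, with ratios of CCNB1-led over other high-scoring cells of 1.84 in DMSO and 2.18 in paclitaxel. CTSL (1.66 and 1.66) and OAT (1.64 and 1.74) were among them too. PCNA, the sliding clamp of DNA replication, was at 170 CPM in the CCNB1-led and 108 CPM in the other high-scoring cells of DMSO, and at 200 and 116 CPM in paclitaxel. The 13 genes of the S-phase list had median ratios of CCNB1-led over other cells of 1.38 in DMSO and 1.05 in paclitaxel. ANXA1 was at 365 and 234 and at 290 and 174 CPM, and MDH1 of the malate shuttle at 237 and 130 and at 171 and 110 CPM. For 39 proteasome subunits the median ratio of CCNB1-led over other cells was 1.25 in DMSO and 1.21 in paclitaxel, and for 8 chaperonin subunits 1.21 and 1.32. Cytokinesis genes had a median of 0.83 in paclitaxel, with 6 of 8 below 1, and 0.998 in DMSO, with 4 of 8. APC/C and mitotic exit genes had 0.887 in paclitaxel, with 10 of 12 below 1, and 1.02 in DMSO, with 5 of 12. Of all 2462 genes, 1230 were below 1 in paclitaxel and 1124 in DMSO, and the difference between the libraries was not tested.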
